A study of Mus musculus with 24 samples.

Results

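The comparison set 6 Sema3d null guts against 6 wildtype guts of mouse embryos, 12 of the 24 guts of the study, with the sexes pooled. It was taken from the table that fits these 12 guts with a term for sex and a term for genotype, and the genotype coefficient is the log2 change, Sema3d null minus wildtype. Of the 24747 genes listed there, 23077 had coefficients within bounds (15 or less in size on the log2 scale) and models that converged, and these are the genes described. The study asked whether Ret and Sema3d interact genetically as the enteric nervous system forms. Each genotype (wildtype, homozygous Sema3d null, homozygous Ret null, and homozygous null for both genes) had 3 female and 3 male guts of embryonic day 12.5. The labels give all embryos a mixed C57BL/6, 129/Sv and C3H strain and do not describe how either null allele was made. The deposited values are model fits per gene, so no value of a single gut can be shown; a level below is a fitted level in normalised counts, averaged over the sexes.

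Class 3 semaphorins are secreted guidance proteins that bind neuropilins on the surface of migrating cells and growing axons, and plexins pass the signal into the cell. Sema3d is known for guiding neural crest cells, axons and endothelial cells. The enteric nervous system arises from neural crest cells that migrate along the gut under signals that include GDNF through the receptor Ret, and endothelin 3 through Ednrb.

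Of genes of the labelled tissue, 31 of 34 for gut epithelium, 20 of 22 for smooth muscle and 29 of 40 for enteric neurons had a level of at least 50. So did 12372 of all 23077 bounded and converged genes, 21 of 23 erythroid genes and 19 of 27 liver genes. These counts therefore do not show tissue identity. Sex labels were matched by the sex coefficients (male minus female, log2) in the authors' deposited table, -12.36 for Xist and 9.54 to 12.49 for Kdm5d, Uty, Ddx3y and Eif2s3y. At a level of at least 50 in the higher of the 2 genotypes, a minimum used throughout and met by 12372 genes, the median derived error of a change was 0.111. A gene had to change by about 0.69 on the log2 scale to be called at a wildtype level of 50 to 200, by about 0.47 at 200 to 1000, and by about 0.40 above 1000, where called means an adjusted p under 0.05. These fits do not show library depth, and no label says that the 6 guts of a genotype came from separate litters. The p-values rest on the dispersion of the authors' model and do not measure a spread between litters. That dispersion need not equal the spread between these guts (median residual deviance 5.63 on 9 degrees of freedom).

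Sema3d transcript was reduced and not absent. Its level fell from 823 in wildtype to 394 in Sema3d null guts, 47.8% of wildtype, and was close between the sexes (806 in female and 840 in male wildtype guts, 386 and 402 in Sema3d null guts). The change in the authors' deposited table was -1.06 ± 0.11 (95% interval -1.27 to -0.85), with an adjusted p of 6.49e-19 recomputed from the deviances because the deposited value is listed as 0. Sema3d lies on chromosome 5 (GRCm38, 12383385 to 12588948, plus strand), and a gene-level value does not show which of its exons the remaining reads covered. Ret, on which the study's other null acts, had a change of -0.19 ± 0.11 with an unadjusted p of 0.0903 in the authors' deposited table, from a level of 1542 to 1347.

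The authors' deposited table called 10 of all 24747 genes, which is 0.0404%, with 5 higher (0.0202%) and 5 lower (0.0202%). At an unadjusted p under 0.05 it listed 1122 genes (4.53%), 541 higher (2.19%) and 581 lower (2.35%). Among the bounded and converged genes that share was 4.56% (2.17% higher and 2.39% lower), and among those at a level of at least 50 it was 6.89% (3.07% higher and 3.82% lower). The shares over bounded and converged genes are the background for the list counts below in this comparison. The change of 90% of the genes at that level lay between -0.21 and 0.25.

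The semaphorin family outside Sema3d showed small differences, and 0 of its 19 other members were called by the likelihood ratio test of the authors' deposited table. At an unadjusted p under 0.05, 2 of the 19 were higher and 1 lower, and the list had a median change of -0.03, against 0.01 over all bounded and converged genes (0.01 for the list after centring on genes of like length). The lower one was Sema3a, the founding class 3 repellent of axons and the gene nearest to Sema3d at this level, with -0.28 ± 0.10 (p = 0.00746, adjusted p 0.832) in the authors' deposited table. Sema4g and Sema6c, transmembrane semaphorins, had 0.22 ± 0.10 (p = 0.0332) and 0.20 ± 0.10 (p = 0.0489) in the authors' deposited table. Of the remaining class 3 members, the authors' deposited table gave Sema3c, known for guiding cardiac crest cells, -0.23 ± 0.13, and Sema3e, the Plxnd1 ligand of vessels, -0.16 ± 0.18. In the authors' deposited table Sema3f, a ligand of Nrp2, had 0.07 ± 0.09, Sema3g 0.03 ± 0.14 and Sema3b -0.01 ± 0.15, all with 95% intervals that hold 0.

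Receptors of semaphorins had a median change of -0.06 over 13 genes, with 0 called, 0 higher and 1 lower at an unadjusted p under 0.05. In the authors' deposited table the lower gene was Chl1, an adhesion molecule of the L1 family that associates with Nrp1, at -0.33 ± 0.13 (p = 0.0117). The neuropilins Nrp1 and Nrp2, co-receptors of class 3 semaphorins, had -0.07 ± 0.09 and -0.05 ± 0.09 in the authors' deposited table. The plexins ranged from -0.26 ± 0.17 for Plxna2 to 0.27 ± 0.42 for Plxnb3, a gene with a level of only 8.5, and Plxna1 had -0.17 ± 0.09 (p = 0.0548) in the authors' deposited table. Plxnd1, the vessel plexin, had 0.07 ± 0.09 and Plxna4, an axonal plexin, -0.10 ± 0.10 in the authors' deposited table.

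Among 27 transducers of semaphorin signals inside the cell, 2 were lower and 2 higher at an unadjusted p under 0.05, 0 were called, and the median was 0.01. Farp2, a guanine nucleotide exchange factor that binds class A plexins, was the lowest at -0.44 ± 0.12 (p = 3.08e-04, adjusted p 0.195) in the authors' deposited table, from a level of 223 to 164. Arhgef12, an exchange factor for small GTPases bound by B plexins, had -0.18 ± 0.09 in the authors' deposited table. The small GTPase gene Rras and the kinase gene Fes, both known in plexin signalling, had 0.37 ± 0.14 and 0.34 ± 0.14 in the authors' deposited table. The collapsin response mediators Dpysl2, Dpysl3, Dpysl4, Dpysl5 and Crmp1 lay between -0.15 and 0.11 there.

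Besides Sema3d and a pair of Rps3a copies described next, 5 called genes had bounded fits. Samd5, which encodes a protein with a sterile alpha motif (chromosome 10, 9622936 to 9675208, minus strand), fell from a level of 449 to 320, by -0.49 ± 0.11 with an adjusted p of 0.0115 in the authors' deposited table. It was the only called member among 12 genes of that motif family, whose median change was -0.01. Hebp1, which encodes a heme-binding protein (chromosome 6, 135137522 to 135198022, minus strand), rose from 78.8 to 145, a change of 0.88 ± 0.19 with an adjusted p of 0.0137 in the authors' deposited table. Its level was higher in Sema3d null guts of both sexes in the fit (168 against 91.5 in females, 122 against 66.2 in males), although an additive fit gives both sexes the same fold.

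The remaining calls of this kind were in less studied genes. Gm37194, an unverified transcript model on chromosome 14, fell from a level of 119 to 72.2 (-0.72 ± 0.16, adjusted p 0.0115), and Gm9581, listed as a processed transcript, from 138 to 80.6 (-0.77 ± 0.16, adjusted p 0.00396) in the authors' deposited table. Rpl27-ps3, a ribosomal protein locus listed as protein-coding but named as a pseudogene, rose from 224 to 433 (0.95 ± 0.22, adjusted p 0.028) in the authors' deposited table, with a sex coefficient of 1.51; reads can be shared with Rpl27, so this value is uncertain. The calls Gm28635 and Gm45234 came from fits that were unbounded or did not converge, so no fold is taken from them.

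**Figure D1:**
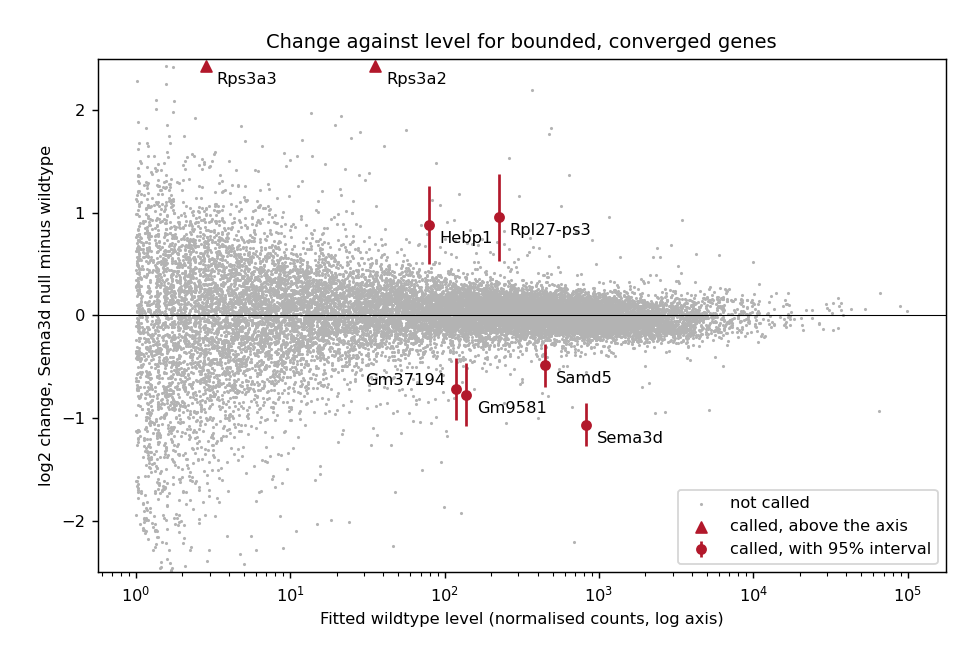
Log2 change, Sema3d null minus wildtype, against the fitted wildtype level on a log axis, 1 point per bounded and converged gene with a wildtype level of at least 1. Red points are the called genes with 95% intervals from derived errors, and triangles mark called genes above the axis (Rps3a2 and Rps3a3); genes beyond the axis that were not called are not drawn. Sema3d is the lowest called gene at -1.06.

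The largest called increases were those of Rps3a2 and Rps3a3, processed pseudogenes of the ribosomal protein gene Rps3a1. In the authors' deposited table Rps3a2 (chromosome 14, 88123017 to 88123808, minus strand) had 5.62 ± 1.19 and Rps3a3 (chromosome 13, 108670603 to 108671397, plus strand) 8.62 ± 1.44, with adjusted p of 0.0103 and 1.77e-05. Rps3a1 has 792 coding bases; Rps3a2 is identical to them at 99.5% and differs at 4, and Rps3a3 is identical at 98.9% and differs at 9. A stretch of 90 coding bases (579 to 668 of Rps3a1, 5′ to 3′, read from GENCODE vM21 transcript sequences) is shown because it holds differences of both copies from Rps3a1. In the line of Rps3a1 the capitals mark the positions at which either copy differs, and in the line of a copy they mark its own differences.
Rps3a1: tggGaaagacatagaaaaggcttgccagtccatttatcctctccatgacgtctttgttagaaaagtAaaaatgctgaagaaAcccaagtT
Rps3a2: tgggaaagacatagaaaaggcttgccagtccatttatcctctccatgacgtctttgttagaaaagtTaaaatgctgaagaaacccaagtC
Rps3a3: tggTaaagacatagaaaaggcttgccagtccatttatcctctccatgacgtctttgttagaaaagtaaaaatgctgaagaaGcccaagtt
Each copy thus differs at 2 of these 90 bases, and longer runs between the capitals are the same in all 3 genes.

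The copies moved against their parent gene. From wildtype to Sema3d null guts the fitted level of Rps3a2 went from 35.5 to 1741 and that of Rps3a3 from 2.83 to 1110, while Rps3a1 went from 10656 to 8907, so that their sum went from 10694 to 11757, a log2 change of 0.14. In the 24-gut fit the summed level was 10570 for wildtype, 11590 for Sema3d null, 10915 for Ret null and 10482 for double null guts. In that fit wildtype stood apart from the other 3 genotypes: Rps3a2 had a level of 35.1 there against 1717 (Sema3d null), 2956 (Ret null) and 831 (double null), and Rps3a3 a level of 2.80 against 1095, 1843 and 507. Reads that fall between the differing bases fit more than 1 gene, so the values of single copies are uncertain.

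The alpha globin genes, which are near-identical neighbours, also had opposite signs, although the error of Hba-a2 was larger than its change. Hba-a1 had 0.52 ± 0.15 (p = 4.04e-04, adjusted p 0.232) and Hba-a2 -0.95 ± 1.07 in the authors' deposited table, and their summed level went from 12694 to 15711, a log2 change of 0.31. Rpl29, Tuba1c and Hist1h2ap, described next, belong to multigene families too, and their values are uncertain as those of the single Rps3a copies are.

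Beyond the called genes, the 15 protein-coding genes with the smallest p in each direction (bounded fits, level of at least 50 in the higher genotype) showed what lay nearest to a call. They were picked by p in this contrast, so their values are a description. The higher genes Edn1, Gulo and Fam129c met the level minimum only through Sema3d null guts, with levels of 51.6, 64.2 and 66.8 against 28.1, 38.5 and 41.4 in wildtype. The 15 higher genes had changes from 0.30 to 0.95 and a median exonic length of 2263 bases, and the 15 lower genes had changes from -1.06 to -0.34 and a median of 6922 bases. Among the higher genes were Edn1, encoding the vasoactive peptide endothelin 1, at 0.87 ± 0.22 (adjusted p 0.0935), and Ppox, which catalyses the penultimate step of heme synthesis, at 0.40 ± 0.10 (0.0935) in the authors' deposited table. Others in the authors' deposited table were Tuba1c, an alpha tubulin, at 0.57 ± 0.15, Rpl29 at 0.68 ± 0.20 and the histone gene Hist1h2ap at 0.39 ± 0.11. Enzymes well known from liver were Fah of tyrosine breakdown at 0.51 ± 0.15, Gulo of ascorbate synthesis at 0.74 ± 0.22 and Grhpr of glyoxylate metabolism at 0.42 ± 0.13 in the authors' deposited table.

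Among the lower genes were Megf9, a transmembrane protein with EGF-like repeats, at -0.39 ± 0.10 (adjusted p 0.0935), and Mdn1, a very large ATPase of ribosome assembly, at -0.35 ± 0.09 (0.12) in the authors' deposited table. Lyst, a regulator of lysosome traffic, had -0.53 ± 0.14, and the DNA polymerase gene Polh -0.48 ± 0.12 in the authors' deposited table. The phosphoinositide-binding protein gene Wdfy2 had -0.52 ± 0.14, the protocadherin gene Pcdhga11 -0.47 ± 0.13 and the scramblase-family gene Xkr4 -0.78 ± 0.21 in the authors' deposited table. Cldn12, a claudin, and Cyp51, a demethylase of sterol synthesis, at -0.39 ± 0.11 and -0.34 ± 0.09 in the authors' deposited table, lie on the same chromosome as Sema3d and are taken up again with its neighbours.

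**Figure D2:**
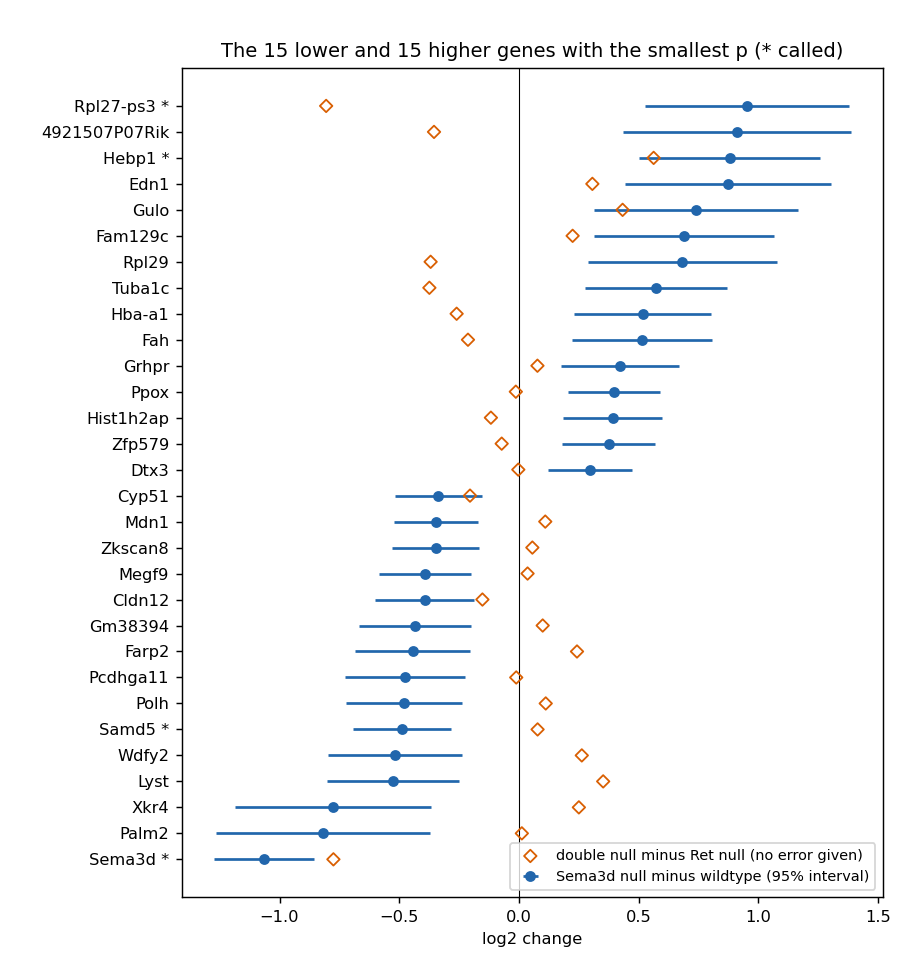
Log2 changes of the 15 lower and 15 higher protein-coding genes with the smallest p in Sema3d null against wildtype guts (blue, with 95% intervals from derived errors) and of the same genes in double null against Ret null guts (orange diamonds, no error drawn). Asterisks mark called genes; 5 of the 15 higher and 4 of the 15 lower genes have the same sign in both comparisons.

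Genes of the enteric neural crest and its derivatives had 0 calls, and most differences were below 0.2 in size. Of 22 progenitor genes, 16 lay below 0, beside 11117 of all 23077 bounded and converged genes, and 0 had an unadjusted p under 0.05, with a median of -0.12. Sox10, the crest and glia transcription factor, had -0.08 ± 0.15, and Foxd3 and Tlx2 had 0.01 ± 0.13 and 0.01 ± 0.16 in the authors' deposited table. The list of 40 enteric neuron genes had a median of 0.03 (-0.03 after centring on genes of like length), with 22 above and 18 below 0 and 0 at an unadjusted p under 0.05, while in the authors' deposited table Map1b had -0.16 ± 0.09 and the neurofilament gene Nefm 0.15 ± 0.10.

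Synapse genes had a median of -0.06, with 2 of 32 lower at an unadjusted p under 0.05. That was 6.25% of the list, against 2.39% lower over all bounded and converged genes. Of 22 glia and Schwann lineage genes, 2 (9.09%) were lower at that p. These were the cadherin genes Cdh19 at -0.39 ± 0.18 and Cdh6 at -0.29 ± 0.13 in the authors' deposited table. This lineage list had a median of -0.08. In whole guts, fewer cells of a type and less RNA per cell cannot be told apart.

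The Ret and endothelin pathway had 24 bounded members, 2 of them higher at an unadjusted p under 0.05 and 0 lower, with a median of -0.01. These were Edn1, above, and Artn, a GDNF-family ligand, at 0.44 ± 0.22 (p = 0.0474) in the authors' deposited table; their wildtype levels were 28.1 and 31.7. The ligands that enteric progenitors are known to use moved little: Gdnf had 0.03 ± 0.10 and Edn3 0.01 ± 0.10 in the authors' deposited table. Their receptors Gfra1 and Ednrb had -0.13 ± 0.15 and -0.17 ± 0.16 in the authors' deposited table, and Ednra, the main receptor of endothelin 1, -0.15 ± 0.16.

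Vessel genes lay mostly above 0. Of 44 endothelial genes, 38 were above 0, against 51.8% of all bounded and converged genes. At an unadjusted p under 0.05, 7 were higher (15.9% of the list, against 2.17% over all such genes) and 0 lower. Of the list 0 were called, and the median change was 0.12. Members other than Eng and Pecam1 with such a p were genes of endothelial surface proteins, Ecscr (0.38 ± 0.14), Esam (0.26 ± 0.11) and Icam2 (0.40 ± 0.18), Plvap of the endothelial diaphragm (0.22 ± 0.10) and Exoc3l2 (0.43 ± 0.21) in the authors' deposited table; some were named after their values were seen. The VEGF receptor gene Kdr had 0.01 ± 0.09, the sphingosine phosphate receptor gene S1pr1 -0.00 ± 0.13 and the arterial Notch ligand gene Dll4 0.02 ± 0.16 in the authors' deposited table, values near 0. Mural cell genes had a median of 0.10 over 11 genes, with the pericyte gene Rgs5 at 0.37 ± 0.15 (p = 0.0141) in the authors' deposited table. Among 29 bounded angiogenic ligands and receptors 1 was higher at that p, the growth factor gene Vegfb at 0.28 ± 0.12 in the authors' deposited table, and Vegfa had 0.34 ± 0.37 there.

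Double null and Ret null guts are 12 other guts, in which the same loss of Sema3d can be read from the 24-gut fit. There 44 of 44 endothelial genes and 11 of 11 mural genes were above 0, with medians of 0.22 and 0.18, beside 38 of 44 and 9 of 11 in Sema3d null against wildtype guts. Of all genes with bounded values in both fits, 11332 of 22152 were above 0 in double null against Ret null guts, with a median of 0.004. That is the background for the list counts given below for double null against Ret null guts. The genes of a list were measured in the same guts and their values are not independent of each other, so these counts are a description.

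Blood-related lists also lay mostly above 0. Of 19 bounded genes of heme metabolism and binding, 17 were above 0, against 51.8% of all bounded and converged genes, with a median of 0.11. At an unadjusted p under 0.05, 5 were higher, 26.3% of the list against 2.17% over all such genes, and Hebp1 was called. Beside Hebp1 and Ppox these were Alad, an early enzyme of heme synthesis, at 0.58 ± 0.21 (p = 0.00484), Hebp2 at 0.49 ± 0.21 and the heme transporter gene Slc48a1 at 0.22 ± 0.11 in the authors' deposited table. In double null against Ret null guts 10 of the 19 were above 0, and Ppox and Alad had -0.01 and -0.43. Erythroid genes had large errors (median 0.42), 17 of 23 above 0, a median of 0.14 and 1 higher at that p, Hba-a1; their median sex coefficient was -0.66, that is higher in female guts. Macrophage and leukocyte genes had a median of 0.18 over 22 genes, with 14 above and 8 below 0 and 13 at a level of at least 50. At that p 3 were higher, 13.6% of the list against 2.17% over all bounded and converged genes. These were the Fc receptor chain gene Fcer1g at 0.64 ± 0.21, Laptm5 at 0.31 ± 0.12 and the complement gene C1qc at 0.33 ± 0.14 in the authors' deposited table. The macrophage growth factor receptor gene Csf1r and the other members did not have a p under 0.05.

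Genes of glycolysis and the response to low oxygen all lay on one side of 0. Above it were 33 of 33, against 51.8% of all bounded and converged genes, with a median change of 0.33 and a largest of 0.87. While 0 were called, 4 had an unadjusted p under 0.05, 12.1% of the list against 2.17% higher over all such genes. The 4 were Eno1, encoding enolase, at 0.59 ± 0.18 (p = 0.00127, adjusted p 0.448), Hk1 at 0.21 ± 0.09, Aldoc at 0.48 ± 0.21 and Gpi1 at 0.33 ± 0.17 in the authors' deposited table. The targets best known from hypoxia had wide errors, with Bnip3 at 0.75 ± 0.95, Ddit4 at 0.62 ± 0.79, Slc2a1 at 0.50 ± 0.50, Ndrg1 at 0.58 ± 0.51 and Adm at 0.87 ± 1.25 in the authors' deposited table. The median derived error of the list was 0.27, against 0.111 for genes at a level of at least 50, and the sex coefficient was above 0 (higher in male guts) for all 33, with a median of 0.28. In double null against Ret null guts 30 of 33 were above 0, with a median of 0.13, and Eno1 had -0.15. What the shared spread of these genes between guts contributes to their common sign was not tested.

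Liver genes had the highest median of all lists, 0.63, with 25 of 27 bounded genes above 0 and 10 higher (37.0%) at an unadjusted p under 0.05, 0 of them called. Over all bounded and converged genes, 51.8% were above 0 and 2.17% were higher at that p. The smallest p were those of Rbp4 and Ttr, carriers of retinol and thyroid hormone, at 0.55 ± 0.17 and 0.40 ± 0.13 in the authors' deposited table, and Alb, albumin, had 2.19 ± 1.04 there. The sex coefficients of this list had a median of -1.97 and reached -5.52 for Alb, so that the fitted liver level was far higher in female than in male guts, and 9 of the 54 genes with a sex coefficient of at least 1 in size at a level of at least 50 were liver genes. The summed level of the list went from 5603 in wildtype to 9475 in Sema3d null guts. In double null against Ret null guts all 20 members with a bounded value were above 0, with a median of 0.30. The part of liver tissue carried along with single guts in these values, or in those of Fah, Gulo and the erythroid genes, was not tested.

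The other lists had 0 calls in the authors' deposited table, apart from the motif family of Samd5. Gut epithelium had a median of 0.08 (34 genes), smooth muscle 0.09 (22), mesothelium 0.03 (17) and interstitial cells and fibroblasts 0.03 (28), with 0 members at an unadjusted p under 0.05 in any of these lists. The Wnt pathway had 0.01 (38 genes) and the Hox genes 0.01 (35), with 0 members at that p; both medians, and that of interstitial cells, were below 0 after centring on genes of like length. Cell cycle genes had 25 of 34 below 0 and a median of -0.05, with Ccnd2, cyclin D2, at -0.21 ± 0.08 (p = 0.0118) in the authors' deposited table; in double null against Ret null guts 5 of the 34 were above 0. Genes of apoptosis and the p53 response had a median of -0.05 over 22 genes. Lists of tissues outside the gut wall lay farther from 0, with larger errors: skeletal muscle, cartilage and sensory ganglion had 15 of 19 below 0 and a median of -0.26 (median error 0.51), kidney, gonad and adrenal a median of 0.20 over 18 (0.70), pancreas 0.12 over 21 (0.35) and lung and heart 0.10 over 16 (0.37). At an unadjusted p under 0.05 these 4 lists had 1, 0, 1 and 1 genes higher and 0, 1, 0 and 0 lower.

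**Figure D3:**
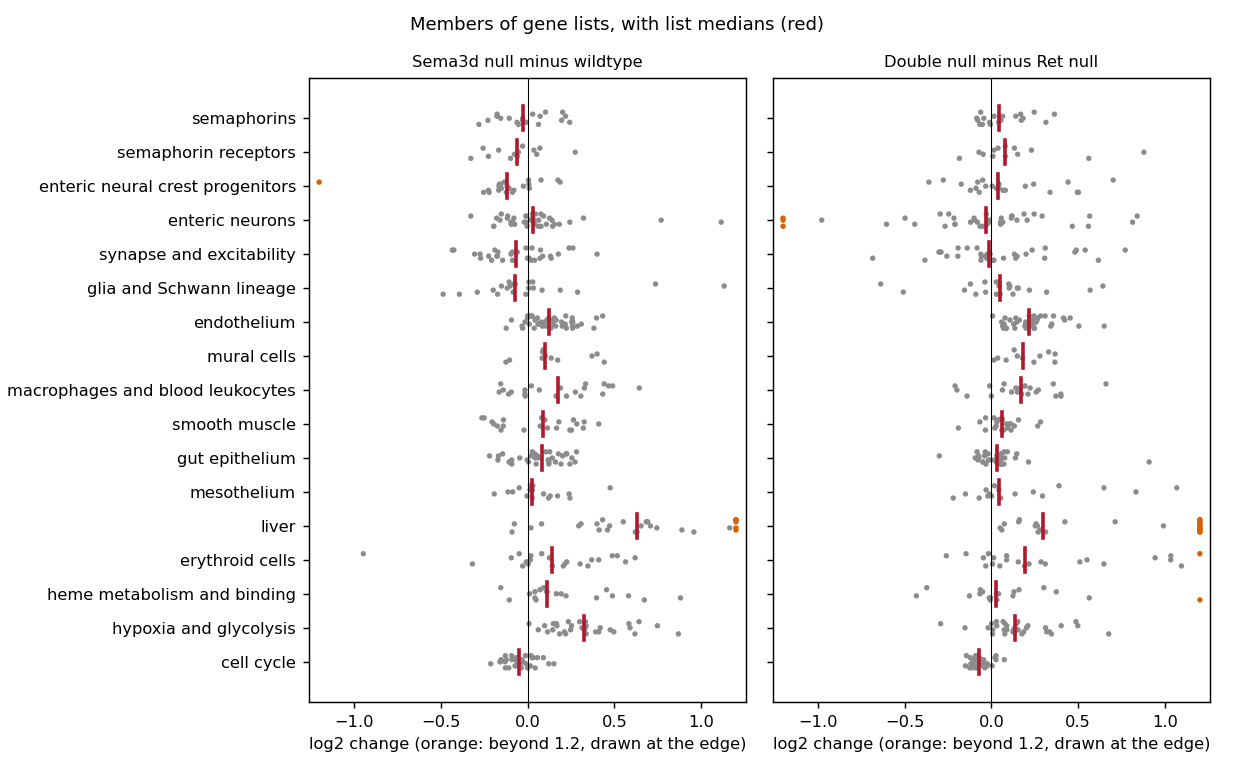
Log2 changes of the members of 17 gene lists (points, bounded and converged genes) and list medians (red bars) in Sema3d null against wildtype guts (left) and double null against Ret null guts (right); orange points lie beyond the axis. The glycolysis and hypoxia list is above 0 throughout on the left, and the endothelial list is above 0 throughout on the right.

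The neighbourhood of Sema3d on chromosome 5 held many lower genes. Within 20 Mb of Sema3d (between gene midpoints, Sema3d left out), 22 of 131 genes at a level of at least 50 had an unadjusted p under 0.05, which is 16.8%, against 5.48% of 657 genes farther away on the chromosome and 6.82% of 11564 genes on other chromosomes. Of the 22, 21 were lower and 1 was higher. Within 10 Mb the count was 14 of 50 genes (28.0%), 13 of them lower, and within 5 Mb 4 of 15, all lower. The only gene within 1 Mb at this level was Sema3a.

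The genes of this region are named here after their values were seen. AI506816, a non-coding transcript 11.2 Mb from Sema3d (23698296 to 23712667, minus strand), came closest to a call: its level went from 2295 to 1185, a change of -0.95 ± 0.23 with an adjusted p of 0.0579 in the authors' deposited table. Pclo, a large scaffold protein of presynaptic active zones 2.2 Mb away, had -0.57 ± 0.17, and 9330182L06Rik -0.48 ± 0.16 in the authors' deposited table. Cldn12 and Cyp51 lie on the other side, at -6.98 and -8.39 Mb, and between Cyp51 and Sema3d the kinase gene Cdk14 had -0.31 ± 0.09 and Dbf4, an activator of replication origins, -0.24 ± 0.09 in the authors' deposited table. Insig1, a brake on sterol synthesis 15.6 Mb away, had -0.36 ± 0.12 in the authors' deposited table. Rint1 and Fam126a, neighbours of AI506816, had -0.29 ± 0.11 and -0.30 ± 0.09 in the authors' deposited table. The only higher gene was Cd36, a fatty acid and thrombospondin receptor of vessels and fat cells, at 0.44 ± 0.17 in the authors' deposited table.

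Part of this neighbourhood showed the same direction where Sema3d was lost in Ret null guts. AI506816 had -1.01 there and Cd36 0.37, beside -0.95 and 0.44, while Cyp51 had -0.20, Cdk14 -0.19, Dbf4 -0.21, Rint1 -0.22, Pclo -0.21 and Cldn12 -0.15. Fam126a and Sema3a had -0.03 and -0.05, and Cdk6, Ankib1 and Krit1 had 0.05, 0.07 and 0.04. In all, 14 of the 22 genes had the same sign in both comparisons. In double null against wildtype guts, which share the wildtype guts with the first comparison, the authors' deposited table called 7 of these 22 genes, against 3.04% of all genes at this level: AI506816 (-1.10), Pclo (-0.85), Cd36 (0.54), Rint1 (-0.31), Fam126a (-0.24), Dbf4 (-0.20) and 9330182L06Rik (-0.70). Some were already lower in Ret null against wildtype guts, where 3.92% of genes at this level were called and the authors' deposited table gave Pclo -0.64 (adjusted p 1.10e-05), Fam126a -0.21 (0.00954) and 9330182L06Rik -0.46 (0.0573). The 22 genes were picked by p against the same wildtype guts. Their share of calls in double null guts is not independent of that choice. Of all 131 genes within 20 Mb, 8 were called in double null guts, against 20 of 657 farther on the chromosome and 346 of 11564 on others. The 131 genes as a whole had a median change of -0.01, and of -0.00 after centring on genes of like length. Their median exonic length was 5456 bases, and that of the 50 genes within 10 Mb was 6143, against 4672.5 on other chromosomes. Centring left the median change within 10 Mb at -0.09. Change also varied with exonic length, as described below, and the part of length in the count of lower neighbours was not tested. The labels give the strains only as a mix, so an effect of losing Sema3d and an effect of alleles inherited with the targeted locus cannot be told apart.

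**Figure D4:**
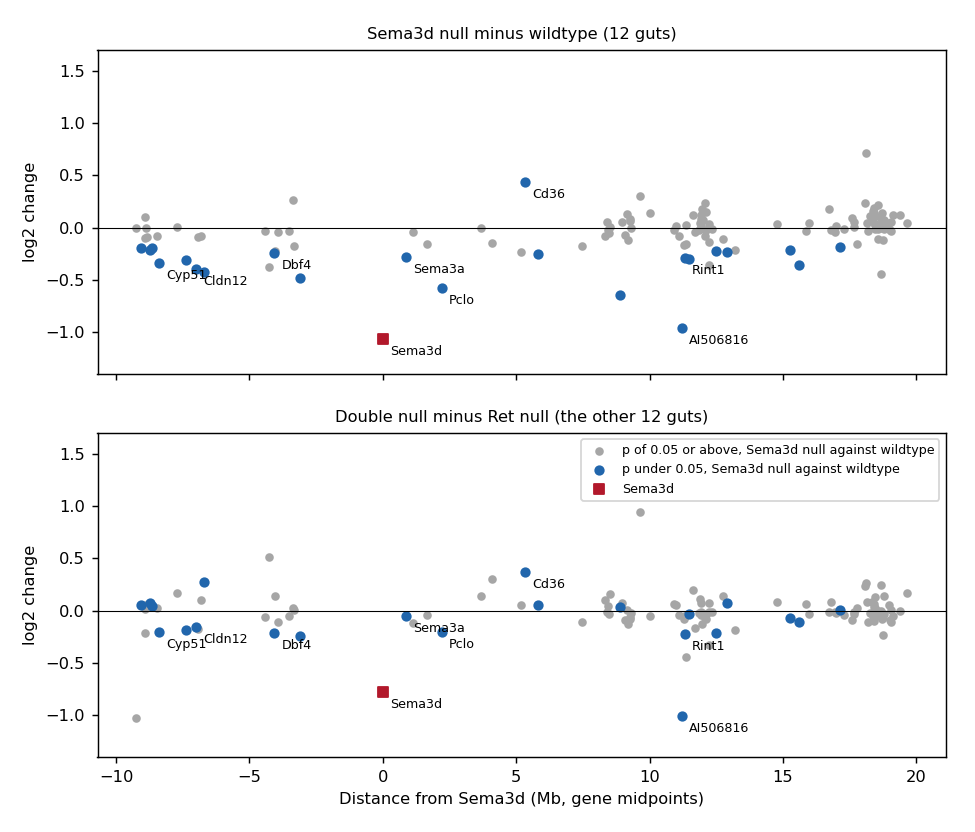
Log2 change against the distance of a gene's midpoint from that of Sema3d in megabases, for genes at a level of at least 50, in Sema3d null against wildtype guts (top) and double null against Ret null guts (bottom). Blue points have an unadjusted p under 0.05 in the first comparison; AI506816 lies at -0.95 in the top panel and at -1.01 in the bottom panel.

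Changes varied with the length of the transcript. When genes at a level of at least 50 were put into 5 equal groups by exonic length, the median change went from 0.09 in the shortest group (median length 1873 bases) through 0.04, 0.00 and -0.03 to -0.08 in the longest (10307 bases). Among the shortest genes 174 were higher and 29 lower at an unadjusted p under 0.05, and among the longest 13 were higher and 245 lower. Across these 12353 genes the Spearman correlation of length and change was -0.43, a description over genes that share 12 guts. In double null against Ret null guts the medians ran the other way, from -0.04 in the shortest to 0.04 in the longest group, with a correlation of 0.27 over 12342 genes.

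Named genes carried part of this pattern. Centred on genes of like length, Samd5 had -0.45 and Hebp1 0.85, close to their values above. Mdn1, with 21836 exonic bases, went from -0.35 to -0.22, Sema3a from -0.28 to -0.18, Hist1h2ap from 0.39 to 0.26 and Lyst from -0.53 to -0.41. Among members at a level of at least 50, centring moved the median of glycolysis and hypoxia from 0.31 to 0.29, of endothelium from 0.12 to 0.13, of liver from 0.63 to 0.56 and of progenitors from -0.12 to -0.12. It moved gut epithelium from 0.06 to 0.01, synapse genes from -0.07 to -0.00, erythroid genes from 0.13 to 0.07, pancreas from 0.09 to 0.02 and semaphorin receptors, long genes as a group, from -0.07 to 0.01. What RNA fragmentation or library preparation contributed was not tested.

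**Figure D5:**
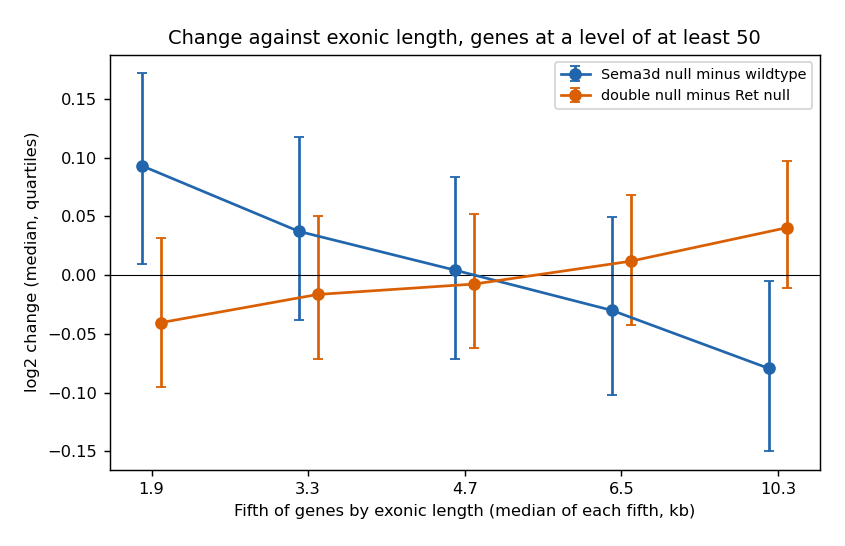
Median log2 change with quartiles for 5 equal groups of genes by exonic length (tick labels give each group's median length in kb), in Sema3d null against wildtype guts (blue) and double null against Ret null guts (orange). The blue medians go down from 0.09 to -0.08 and the orange ones up from -0.04 to 0.04.

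The loss of Sema3d was last compared between guts with and without Ret. The change in Ret null guts is the sum of the Sema3d and interaction coefficients of the 24-gut fit; it uses none of the 12 guts of the first comparison, although both come from 1 fit with 1 dispersion per gene. Sema3d itself had -0.77 in guts without Ret and -1.06 in guts with Ret, with an interaction of 0.29 ± 0.13 (p = 0.0255, adjusted p 0.636) in the authors' deposited table. Against the shared wildtype guts the authors' deposited table called Sema3d lower in Ret null guts too, at -0.27 ± 0.06 (adjusted p 8.82e-04), and gave -1.04 ± 0.07 for double null guts, so the change without Ret starts from a lower level. Hebp1 was higher in both (0.88 and 0.56), with an interaction of -0.35 ± 0.31 and an adjusted p of 0.885 in the authors' deposited table.

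Most of the other leading genes did not keep their sign. The interaction was called for 32 of 12361 genes at a level of at least 50 (0.259%), with 1291 (10.4%) at an unadjusted p under 0.05. It was called for 3 of the 15 higher and 6 of the 15 lower genes with the smallest p, which is not independent of how they were picked, because the interaction contains the first comparison with its sign reversed. Samd5 had -0.49 in guts with Ret and 0.08 in guts without it (interaction 0.57 ± 0.13, adjusted p 0.0204), and Gm9581 had -0.77 and 0.52 (1.28 ± 0.20, adjusted p 8.78e-07) in the authors' deposited table. Set beside each other against the same wildtype guts, Samd5 had -0.49 (Sema3d null), -0.32 (Ret null) and -0.24 (double null), and Lyst had -0.53, -0.92 and -0.57 in the authors' deposited table of each comparison. Rps3a2 and Rps3a3 had interactions of -7.44 ± 1.42 and -10.47 ± 1.53 in the authors' deposited table, but the reduced 24-gut model did not converge for them, so their p is not used.

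Across the 12361 genes the changes in the 2 comparisons had a Pearson correlation of -0.18 and a Spearman correlation of -0.22, and -0.12 and -0.11 after both were centred on genes of like length. Within 20 Mb of Sema3d the correlations were 0.38 and 0.22 over 130 genes. These are descriptions across genes, which share guts, a fit and transcript length within each comparison. Of 848 genes with an unadjusted p under 0.05 in Sema3d null against wildtype guts, 255 (30.1%) had the same sign in guts without Ret, 154 of 377 higher genes and 101 of 471 lower genes.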

How the data were processed

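Poly-A RNA of 24 single guts was sequenced as 100 bp read pairs, per the labels' protocols. FastQC 0.11.5, Trimmomatic 0.36, STAR, RSEM 1.2.31, DESeq 1.24.0 and the GRCm38 (mm10) build are named in the submitters' processing notes, without roles or order. The 4 deposited tables hold fits per gene: coefficients deposited by the authors and read here as log2 (intercept, sex and genotype, by name per the file headers), deviances deposited by the authors for a reduced and a full model, a score of fit with no set range, and p-values and adjusted p-values deposited by the authors. The interaction table's deposited coefficients were read as log2 too, apart from a few unbounded fits. No count test was run.

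The headers do not name the base of the logarithm; base 2 was used, with which the fitted wildtype levels sum to 11981252 normalised counts. A chi-square tail with 1 degree of freedom, taken from the deviance difference, gave the deposited p-values within 1.30e-10, and Benjamini-Hochberg adjustment over the table gave the adjusted p. The derived error after ± is the size of a coefficient over the square root of the deviance difference, and 95% intervals are 1.96 such errors. On simulated counts (2000 genes, 12 guts, dispersion known) the test called 95.9% of genes set to change by 1 on the log2 scale and 83.3% of genes set to change by 0.5. Unchanged genes made up 6.77% of calls, and the intervals held the true value for 95.2% of genes. The simulation set a far larger share of genes to change than the 0.0404% called in the real data. A real call needed a change of 4.39 derived errors, a stricter cutoff than in the simulation, so the simulated shares of calls do not carry over to the real calls. The median residual deviance of the real fits was 5.63 on 9 degrees of freedom. Not converged were 15 genes, and 1655 more had unbounded coefficients.

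Genes were matched by ID to GENCODE vM21 (24601 of 24747), from which positions, exonic lengths and the Rps3a sequences were read. Named were Ret, Sema3d, every called gene, the 15 protein-coding genes with the smallest p in each direction, all semaphorins and their receptors, and from each of the gene lists the 4 members lowest in p at most (29 lists, 742 entries, 40 genes in more than 1 list); others are said to be named after their values were seen; a few genes under this rule are not reported here. Members, lists and rules were chosen with earlier results of these data known. Python 3.11.15, pandas 2.3.3, numpy 2.4.6, scipy 1.17.1, statsmodels 0.14.6, Biopython 1.88 and matplotlib 3.10.9 were used. Alternatives were other sets of genes for the adjustment, other thresholds, the 24-gut fit, centring and level minimums.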

Additional observations from a re-analysis of the deposited data

Results flagged for a closer look

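For 11 named genes the effect of losing Sema3d differed between guts with and without Ret by the interaction test in the authors' deposited table (adjusted p under 0.05, 24-gut fit); all 11 had opposite signs in the 2 settings, and 8 had an interaction above 0. The log2 interaction coefficients above 0 were 1.28 for Gm9581, 0.88 for Lyst, 0.78 for Wdfy2, 0.69 for Farp2, 0.66 for Plxna4, 0.57 for Samd5, 0.53 for Gm38394 and 0.46 for Mdn1 in the authors' deposited table. Those below 0 were -1.70 for Rpl27-ps3, -1.05 for Rpl29 and -0.93 for Tuba1c in the authors' deposited table. Plxna4 had a change of -0.10 in guts with Ret and 0.56 in guts without it, and in the authors' deposited tables -1.45 (Ret null) and -0.88 (double null) against wildtype guts. Samd5 had -0.49 and 0.08, and Farp2 -0.44 and 0.24. Values without Ret carry no error, and those of Samd5, Gm38394 (0.10) and Mdn1 (0.11) were small. Against the same wildtype guts, Ret null guts changed with the same sign as Sema3d null guts for each flagged gene. Gm9581 had -0.77 (Sema3d null) and -0.42 (Ret null), Tuba1c 0.57 and 0.62, and Gm38394 -0.43 and -0.09 in the authors' deposited tables. Values of Rpl27-ps3, Rpl29 and Tuba1c are uncertain, as said above. Named genes were picked in part by their change in guts with Ret, which the interaction contains, so the interactions are not independent of that choice.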

How the results depend on the processing

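The count of 10 called genes was 6 when p was adjusted over protein-coding genes, 5 by Bonferroni adjustment and 17 at an adjusted p under 0.1, which added AI506816, Edn1, Ppox, Megf9, 5830444B04Rik, Gm17383 and Gm6089. It was 10 and 11 when adjusted over genes at a level of at least 50 or 10, 8 over bounded and converged genes, and 10 after centring on the median. The Pearson correlation of -0.18 between the 2 comparisons was -0.054 at a level of at least 10, -0.22 at a level of at least 200 and 0.38 within 20 Mb of Sema3d, a setting added after seeing the data. The 24-gut fit and centring on the median or on genes of like level moved no named gene by more than its derived error; centring on genes of like length, added after seeing the data, moved 7 genes by more than that and 139 by less. No list median moved by more than the spread of its members under the 5 alternatives run. That spread is wide, so this does not show that the medians are stable. Centred on length, over members at a level of at least 50, 7 list medians had the other sign than over all bounded members. These were semaphorins, their receptors, enteric neurons, interstitial cells, lung and heart, Wnt and Hox. The median of lung and heart was already -0.08 at that level before centring (6 genes) and -0.05 after it, so centring did not change its sign. No paired analysis was possible because the columns carry no values of single guts, and leaving out each replicate and the replicate block were not run for the same reason. Depth per gut is unknown, so no limit of detection can be given.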
